A study of Rattus norvegicus with 12 samples.

Results

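A set of 9 genes of bone morphogenetic protein (BMP) signalling was followed in rat bone marrow mesenchymal stem cells (BMSCs). They are Bmp2, Bmp4, Grem1, Nog, Bmper, Bambi, Id1, Id2 and Id3, taken by gene symbol from the 2 deposited gene tables. All 9 were listed in both tables, out of 20400 genes listed in either, and all 9 passed a filter on low values (a mean of at least 1 normalized count). They were chosen by their role in the pathway and by their values in BMSC-CT and BMSC-C, so that comparison is given as a description. Where a threshold is named for the 9 genes there, it describes their values and is no evidence for a difference.

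RNA was sequenced from wild-type rat cells that in all groups were kept in low-glucose DMEM with chondrogenic induction medium, in 12 libraries that form 4 groups of 3. BMSC-C was the untreated control. In BMSC-CT the cells were given CTGF (connective tissue growth factor) for 1 week, followed by TGF-β1. BF-C and BF-D were labelled fibrotic BMSCs, and the series design calls them induced fibrotic chondrocytes. BF-D received docetaxel, which stabilizes microtubules, and BF-C was its control. The dose and duration of docetaxel, and the way the BF cells were obtained, are not in the labels. Nor is it stated that replicates came from separate cultures, so a p here reflects only the scatter of these libraries, which may be technical.

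BMP ligands such as Bmp2 and Bmp4 bind type I and type II receptor kinases at the cell surface, and the activated receptors phosphorylate SMAD1, SMAD5 and SMAD9, which enter the nucleus with SMAD4. Secreted antagonists, among them gremlin-1 (Grem1) and noggin (Nog), bind the ligands and keep them from their receptors. Id genes are direct targets of the BMP SMADs, and their products hold back basic helix-loop-helix (bHLH) transcription factors by taking up the E proteins these need as partners. In marrow stromal cells BMP signals are known for driving bone and cartilage formation.

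Depth ran from 15580310 to 19870047 reads per library. Across the libraries 1 read was worth 0.813 to 1.61 normalized counts, the deposited unit (reads divided by a size factor per library). BMSC-CT replicate 3 stood apart: 14621 genes had reads in it (at least 16100 elsewhere in BMSC), and 14.97% of its reads fell on ribosomal protein genes (3.97% to 6.45% elsewhere). BF-D replicate 2 stood apart less, with 2.78% ribosomal protein reads against 1.65% to 1.78% in the other BF libraries. The 15 macrophage markers of a chosen list summed to 8552 to 10259 RPM (reads of a gene per 1000000 reads of its library) in BMSC-C and to 10687 to 13551 in BMSC-CT, with none at 0. In BF-C they summed to 40.7 to 43.7 and in BF-D to 57.0 to 62.8, with C1qa, C1qb, C1qc and Cd163 at 0 in both. The 11 stromal markers were at 4722 to 5231 in the BMSC controls and at 5472 to 11666 after CTGF and TGF-β1. Both sums hide members with opposite directions. Of the stromal markers, 3 had a higher mean in BMSC-CT (Col1a1, from 1645 to 6614 RPM, Col1a2 and Eng) and 8 a lower one, and of the macrophage markers 6 were higher (Lyz2 from 4066 to 8102) and 9 lower (Adgre1 from 3145 to 963). In the BF controls the 11 stromal markers summed to 54307 to 56732 RPM, and with docetaxel to 41027 to 51889. Most of these sums was Col1a1, with means of 46887 RPM in BF-C and 39032 in BF-D. Of the 11, 2 (Eng and Thy1) had a higher mean in BF-D and 9 a lower one. The 10 chondrocyte markers summed to at most 9.43 RPM in any library: Col2a1 had no reads in either BMSC group and Acan none in either BF group, so cartilage-defining transcripts were absent or nearly so. The 9 endothelial markers summed to 27.9 to 117, with Pecam1 and Emcn at 0 in all groups.

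Both BMP ligands were close to absent after CTGF and TGF-β1. Bmp2 (ENSRNOG00000021276), a ligand that induces bone and cartilage, had 932, 700.5 and 886 normalized counts in BMSC-C replicates 1, 2 and 3 and 7.23, 7.39 and 0 in those of BMSC-CT. The treated libraries all lay far below the controls, and the 3 of them together held 15 reads of Bmp2. In replicate 3 a count of 0 allows up to 4.83 normalized counts (3 reads, counting error only). The means were 839 ± 122 and 4.87 ± 4.22 (SD, n = 3), a ratio of 172, and the log2 fold change on log2(normalized count + 1) was -7.67 (standard error 0.85). That scale can understate the change of low genes, and it can overstate it where 1 library has no reads: without BMSC-CT replicate 3 the log2 fold change of Bmp2 was -6.65.

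Bmp4 (ENSRNOG00000009694), a related ligand, had 497, 436 and 508 normalized counts in BMSC-C. In BMSC-CT it had 19.0, 8.44 and 1.61, from 30 reads in all, and the groups did not overlap. The means were 480.1 ± 38.8 and 9.68 ± 8.75, with a log2 fold change of -5.93 (standard error 0.73). The treated libraries were spread wider than the controls on this scale, with replicate 3 lowest for both ligands, and without it the log2 fold change of Bmp4 was -5.13. In RNA from bulk cells, fewer cells of a type that makes a transcript and less transcript per cell cannot be told apart, here or for the genes below. Stromal markers with a lower mean in BMSC-CT were Pdgfra (1009 to 107 RPM), Thy1 (653 to 197), Cxcl12 (236 to 1.51), Prrx1 (232 to 31.8), Pdgfrb (546 to 335), Nt5e, Twist1 and Lepr, while Col1a1, Col1a2 and Eng had a higher one. The part of these markers, and of the macrophage markers given above, in these differences was not tested.

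Grem1 had the largest fold change among the 9 genes. Grem1 (ENSRNOG00000026053), a secreted antagonist of BMP2, BMP4 and BMP7, had 53978, 49544 and 36859.8 normalized counts in BMSC-C. It had 235, 172 and 137 in BMSC-CT. Every treated library was far below every control library, and the treated group still held 508 reads. The means were 46794 ± 8884 and 181 ± 49.8, a ratio of 258 and a log2 fold change of -8.02 (standard error 0.27). Ranked from the lowest log2 fold change of 16818 genes tested, Grem1 was at place 8, Bmp2 at 14 and Bmp4 at 68.

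The promoters of Bmp4 and Grem1, the ligand and the antagonist whose levels were low together in BMSC-CT, are shown from RefSeq (assembly GRCr8, 250 bases before to 50 after the annotated start, in the direction of the gene). Capitals mark GGCGCC, a GC-rich motif known to be bound by BMP SMADs. Both genes lie on the minus strand, Bmp4 at chr15:22101884-22102183 and Grem1 at chr3:120978270-120978569. The expression tables name no usable build, so these positions belong to the RefSeq table alone.
Bmp4: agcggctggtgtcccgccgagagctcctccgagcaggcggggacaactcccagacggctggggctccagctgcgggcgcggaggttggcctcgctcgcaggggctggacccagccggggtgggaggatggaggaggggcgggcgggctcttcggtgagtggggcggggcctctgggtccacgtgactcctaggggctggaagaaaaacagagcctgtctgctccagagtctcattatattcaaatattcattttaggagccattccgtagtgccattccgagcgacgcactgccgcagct
Grem1: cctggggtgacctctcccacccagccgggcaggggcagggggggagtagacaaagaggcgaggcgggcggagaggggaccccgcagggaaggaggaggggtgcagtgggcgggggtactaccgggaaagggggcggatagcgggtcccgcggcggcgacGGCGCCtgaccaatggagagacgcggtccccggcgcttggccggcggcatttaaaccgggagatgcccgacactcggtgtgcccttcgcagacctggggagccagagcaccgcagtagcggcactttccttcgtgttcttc
Of the 9 genes, 8 had a promoter in the RefSeq table. GGCGCC, which reads the same on both strands, was found in 4 of the 8 (Grem1 at -91, Nog at -51, Bmper at -136 and Bambi at -74 from the start) and in 11.04% of all 33365 promoters of that length. The 4 promoters with the motif include 3 genes that were lower in BMSC-CT and Bambi, which was higher. The promoters are rich in G and C, with 70% in Grem1 and 65% in Bmp4 against a median of 51.7% over all promoters. A match describes these letters and is not a binding site measured here.

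The other secreted BMP-binding proteins among the 9 were lower as well, from lower starting levels. Nog (ENSRNOG00000023683), noggin, had 21.1, 18.6 and 24.3 normalized counts in BMSC-C and 3.62, 2.11 and 0 in BMSC-CT. The groups did not overlap, but the treated libraries held only 6 reads. Its log2 fold change was -3.19 (standard error 0.66), or -2.55 without BMSC-CT replicate 3. Bmper (ENSRNOG00000015357), which binds BMPs and can restrain or aid them, had 333, 404 and 334 normalized counts in BMSC-C and 85.0, 47.5 and 80.5 in BMSC-CT, again without overlap. Its log2 fold change was -2.35 (standard error 0.32).

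Bambi was the only one of the 9 that was higher in BMSC-CT. Bambi (ENSRNOG00000016066), a membrane protein that resembles a type I receptor but lacks the kinase and dampens BMP and TGF-β signalling, had 72.4, 55.0 and 81.5 normalized counts in BMSC-C. It had 146, 161 and 177 in BMSC-CT, above every control library. The means were 69.6 ± 13.4 and 161 ± 15.8, with a log2 fold change of 1.22 (standard error 0.29). It was past the threshold as reported, but not in 7 of 16 alternatives: total-read scaling, the replicate number as a block, and leaving out BMSC-CT replicate 1, BMSC-CT replicate 2 or any 1 BMSC-C library. Scaled by total reads, the log2 fold change was 0.80. That scaling also moved the median of all genes by -0.39, so its direction relative to other genes was kept.

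**Figure D1:**
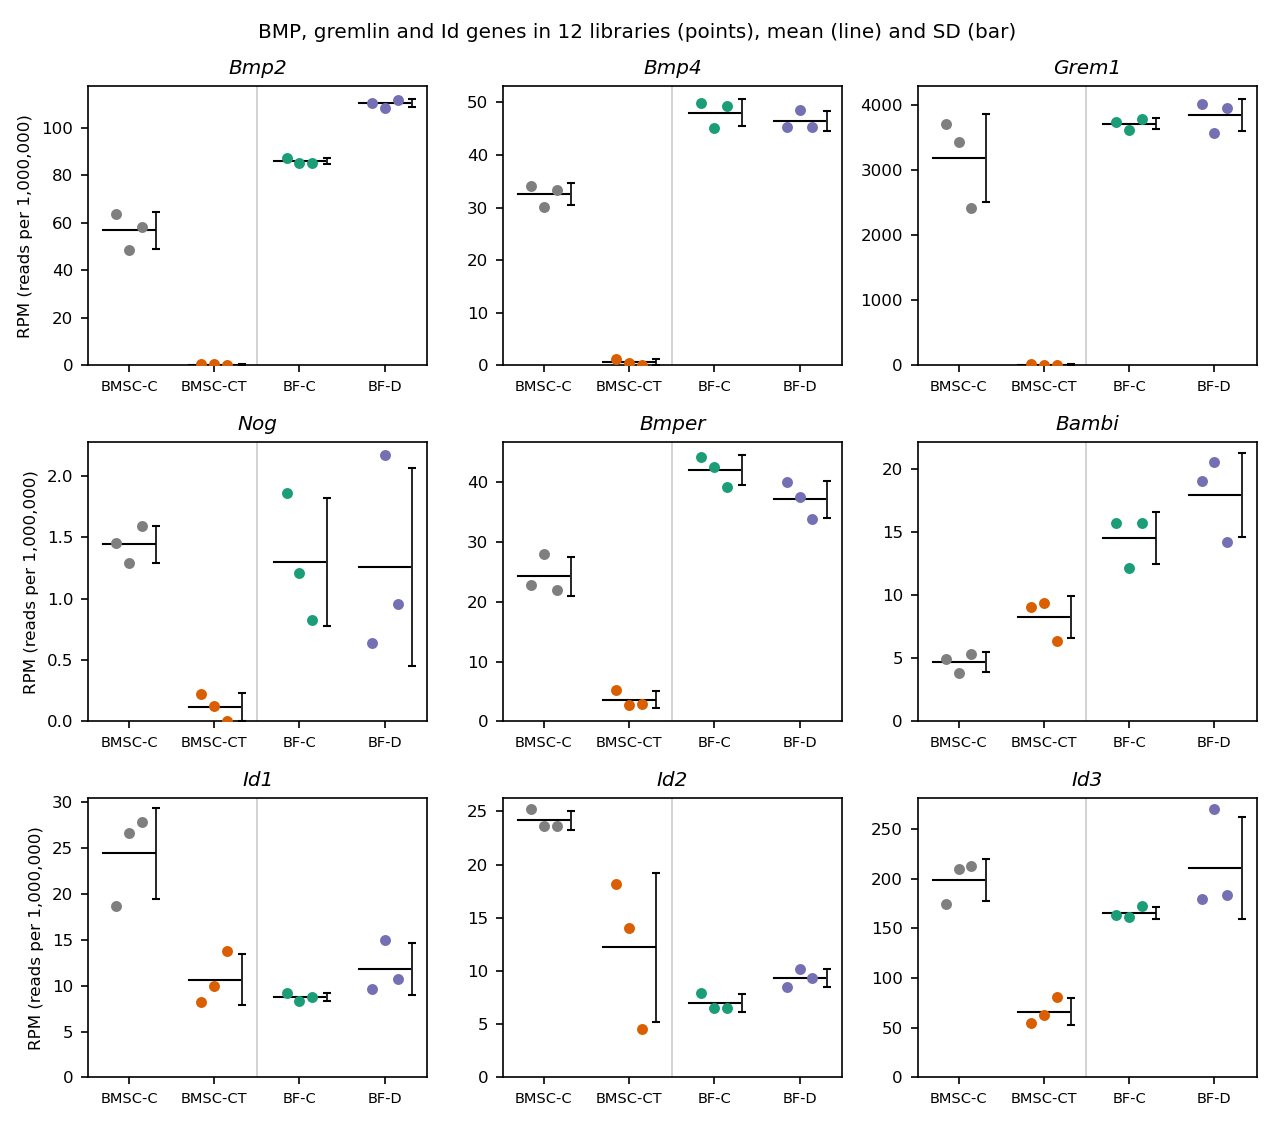
RPM of each of the 9 genes in the 12 libraries, with the mean (line) and SD (bar) of each group of 3. In BMSC-CT the points of Bmp2, Bmp4 and Grem1 lie at the axis, those of Bambi lie above BMSC-C, and those of the Id genes lie below BMSC-C with 1 library of Id2 far below the other two.

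The Id genes were lower in BMSC-CT by much less than the ligands, and their values depended on the library that stood apart. Id1 (ENSRNOG00000021750) had 273, 385 and 425 normalized counts in BMSC-C and 132, 173 and 383 in BMSC-CT. Replicate 3 reached into the control range, so the groups overlapped, although by RPM they did not (18.7 to 27.9 against 8.25 to 13.8). The log2 fold change of Id1 was -0.78 (standard error 0.44). Id3 (ENSRNOG00000026124), the most abundant of the Id genes per length, had 2541, 3017 and 3234 normalized counts in BMSC-C and 874, 1079 and 2261 in BMSC-CT, without overlap. Its log2 fold change was -1.18 (standard error 0.37). Id2 (ENSRNOG00000007237) had 367, 341 and 360.5 normalized counts in BMSC-C and 290.2, 243 and 126 in BMSC-CT, also without overlap. Its log2 fold change was -0.78 (standard error 0.35). Replicate 3 was thus the highest treated library for Id1 and Id3 and the lowest for Id2. Without it the log2 fold changes were -1.23 for Id1, -1.59 for Id3 and -0.42 for Id2.

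The promoters of Id1 and Id3, whose treated libraries were ordered alike, are shown with TATAAA, the TATA box letters, in capitals (RefSeq, GRCr8, plus strand, chr3:161671314-161671613 and chr5:153656041-153656340).
Id1: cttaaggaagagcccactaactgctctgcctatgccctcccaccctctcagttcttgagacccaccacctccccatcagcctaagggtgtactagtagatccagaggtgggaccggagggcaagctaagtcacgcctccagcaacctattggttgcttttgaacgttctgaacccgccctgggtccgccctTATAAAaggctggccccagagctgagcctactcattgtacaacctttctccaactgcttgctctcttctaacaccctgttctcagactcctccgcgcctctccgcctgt
Id3: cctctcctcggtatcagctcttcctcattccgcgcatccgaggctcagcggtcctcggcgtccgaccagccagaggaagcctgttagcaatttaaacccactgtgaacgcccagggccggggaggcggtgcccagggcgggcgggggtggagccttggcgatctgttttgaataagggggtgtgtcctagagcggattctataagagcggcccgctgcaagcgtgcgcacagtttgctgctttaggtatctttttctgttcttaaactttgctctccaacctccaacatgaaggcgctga
TATAAA was found, on either strand, in Id1 alone of the 8 promoters, at -59 from the start, and in 14.2% of all promoters. GGCGCC was in none of the Id promoters within this window. The GC box letters GGGCGG were in all 8 (33.1% of all promoters), the E box CANNTG in 4 (72.1%), GGAATG, the TEAD motif, in 2 (14.2%) and TGANTCA, the AP-1 motif, in none (7.34%). Each motif was counted on both strands and separately, also where matches of different motifs overlap.

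Of the 9 genes, 5 were past the threshold as lower in BMSC-CT (limma adjusted p under 0.05), 1 as higher and 3 (the Id genes) not. The number past it was 4, all lower, without BMSC-CT replicate 2 or without any 1 BMSC-C library, where Nog and Bambi were no longer past it. It was 5 without BMSC-CT replicate 1, and 8, with 7 lower, without BMSC-CT replicate 3 or with the length trend removed. With total-read scaling 7 were past it as lower and 0 as higher. Bmp2, Bmp4, Grem1 and Bmper were past it in all 16 alternatives. Over all 16818 genes tested, 10.9% were past it as lower and 7.7% as higher, 18.6% together. Groups did not overlap, with BMSC-CT lower, for 7 of the 9 and for 28.9% of all genes, and with BMSC-CT higher for 1 of the 9 and for 23.3%. Because values of this comparison were known when the genes were chosen, nothing is read from these counts. The same holds for which of the 9 stayed past the threshold in the alternatives. Relative to the median log2 fold change of all genes (-0.15), 8 of the 9 lay below and Bambi above. With libraries scaled by total reads the median was -0.53, 787 genes were called higher and 1967 lower (28.6% higher), against 1295 and 1839 as reported (41.3% higher). Under that scaling the log2 fold changes were -1.20 for Id1, -1.20 for Id2 and -1.60 for Id3.

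**Figure D2:**
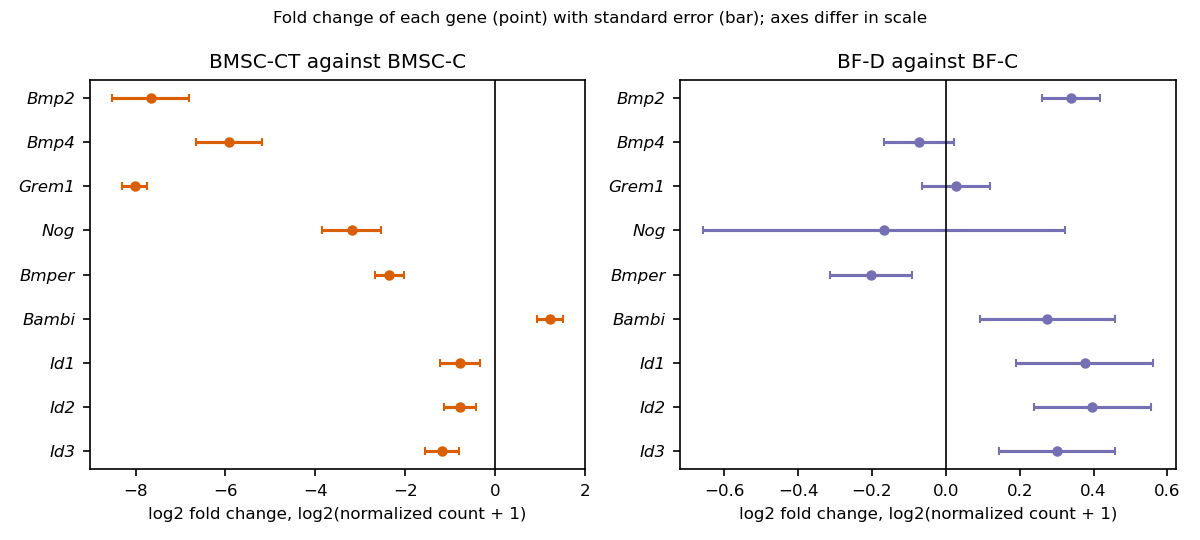
Log2 fold change (point) with its standard error (bar) of each gene, BMSC-CT against BMSC-C on the left and BF-D against BF-C on the right, on axes of different width. On the left Grem1, Bmp2 and Bmp4 lie at -8.02, -7.67 and -5.93 and Bambi alone is above 0, and on the right all 9 lie between -0.20 and 0.40.

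In the BF cells none of the 9 genes passed the threshold, which 2 of 17076 genes did. Of the 9, 4 (Bmp2, Id1, Id2 and Id3) were higher in every docetaxel library than in any control, as were 7.78% of all genes. Bmp2 had 1469.9, 1434 and 1419 normalized counts in BF-C and 1834, 1796 and 1837 in BF-D, so that every docetaxel library was above every control. The means were 1441 ± 26.2 and 1822 ± 22.9 (SD, n = 3), so that the log2 fold change was 0.34 (standard error 0.08, limma unadjusted p = 0.0026, adjusted p = 0.51 over 17076 genes). Without BF-D replicate 2 its log2 fold change was 0.35 and the limma adjusted p was 0.0042. Over all 6 libraries left out in turn, the adjusted p of Bmp2 ran from 0.0042 to 0.92. In the authors' deposited table the log2 fold change of Bmp2 is 0.34 with an adjusted p of 0.0884.

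The values of Bmp4 and Grem1 overlapped between BF-D and BF-C. Bmp4 had 839, 760.3 and 821 normalized counts in BF-C and 751, 805 and 745 in BF-D, with overlap (log2 fold change -0.07, standard error 0.09, limma adjusted p = 0.80). Grem1 had 62834, 60803 and 63057 in BF-C and 66499, 59051 and 64934 in BF-D. The groups overlapped, and the log2 fold change was 0.03 (standard error 0.09, limma adjusted p = 0.92). By mean level Grem1 ranked 23 of the 17076 genes tested in these cells, so the comparison rests on 56937 to 74165 reads in each library.

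Nog and Bmper gave no call either. Nog had 31.3, 20.3 and 13.8 normalized counts in BF-C and 10.6, 35.9 and 15.7 in BF-D, from 10 to 37 reads a library, and no difference was detectable at this depth (log2 fold change -0.17, standard error 0.49, limma adjusted p = 0.91). Bmper had 746, 717 and 655 in BF-C and 665, 619.6 and 556 in BF-D (log2 fold change -0.20, standard error 0.11, limma adjusted p = 0.71). Its groups overlapped. Bambi had 264, 204 and 263 in BF-C and 316, 340.4 and 234 in BF-D, with overlap (log2 fold change 0.28, standard error 0.18, limma adjusted p = 0.71).

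All 3 Id genes had higher values in every docetaxel library than in any control, without passing the threshold. Id1 had 155, 141 and 147 normalized counts in BF-C and 161, 248 and 176 in BF-D (log2 fold change 0.38, standard error 0.19, limma adjusted p = 0.71). Id3 had 2745, 2710.3 and 2867 in BF-C and 2972, 4469 and 3011 in BF-D (log2 fold change 0.30, standard error 0.16, limma adjusted p = 0.71). In both genes BF-D replicate 2, the library with more ribosomal protein reads, was the high one, and without it the log2 fold changes were 0.19 and 0.11. Id2 had 134, 110.0 and 108 in BF-C and 142, 169 and 153 in BF-D (log2 fold change 0.40, standard error 0.16, limma adjusted p = 0.71). Of the 9 genes 4 had groups without overlap and BF-D higher (Bmp2, Id1, Id2 and Id3), and 7.78% of all genes did. None of the 9 was called, and 2 of 17076 genes were (0.0117%). At an unadjusted p under 0.05, limma gave 2 of the 9, Bmp2 and Id2, and 6.2% of all genes. On the recovered reads edgeR and DESeq2 also called 0 of the 9.

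Levels per gene length, in RPKM (RPM per kilobase of deposited gene length), put the genes on a scale on which they can be compared. In BMSC-C Grem1 was highest (837 ± 178, SD, n = 3), followed by Id3 (197 ± 20.9), and neither overlapped its neighbour in the order. Id1, Bmp2 and Id2 came next, and each overlapped the next in this order. Bmp4 (13.99 to 15.8), Bmper (5.79 to 7.41), Bambi (2.60 to 3.65) and Nog (0.793 to 0.978) followed, each without overlap with the next. In BMSC-CT the order was another: Id3 was highest (65.7 ± 13.6), Id1, Id2 and Bambi followed, and Grem1 (2.59 ± 1.28) was the fifth. The ratio of Grem1 to Bmp4, an antagonist to its ligand, was 41.1 to 64.5 in BMSC-C and 7.02 to 48.2 in BMSC-CT, where the highest value is replicate 3 with its single read of Bmp4. Without that library the treated ratios were 7.02 and 11.5.

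In both BF groups Grem1 was again highest per length, at 974 ± 22.5 in BF-C and 1009 ± 63.1 in BF-D, then Id3, Bmp2 and Bmp4, none of which overlapped the next. Bmper, Bambi and Id1 took the next places, with overlaps, and Id2 and Nog were the lowest. The ratio of Grem1 to Bmp4 was 42.5 to 45.3 in BF-C and 41.6 to 50.2 in BF-D. The ratio of Id3 to Id1 was even within each group and unlike between the tables: 7.25 to 8.86 (BMSC-C) and 5.62 to 6.31 (BMSC-CT) against 16.9 to 18.6 (BF-C) and 16.3 to 17.6 (BF-D). The 2 tables were normalized separately, so levels set across them are a description, with no test. With that limit, both BF groups had mean levels of Bmp2, Bmp4 and Grem1 above those of the control BMSCs, unlike the BMSCs given CTGF and TGF-β1. For Grem1 the libraries overlapped: BMSC-C replicate 1 was at 973, above BF-C replicate 2 (949) and BF-D replicate 2 (937).

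**Figure D3:**
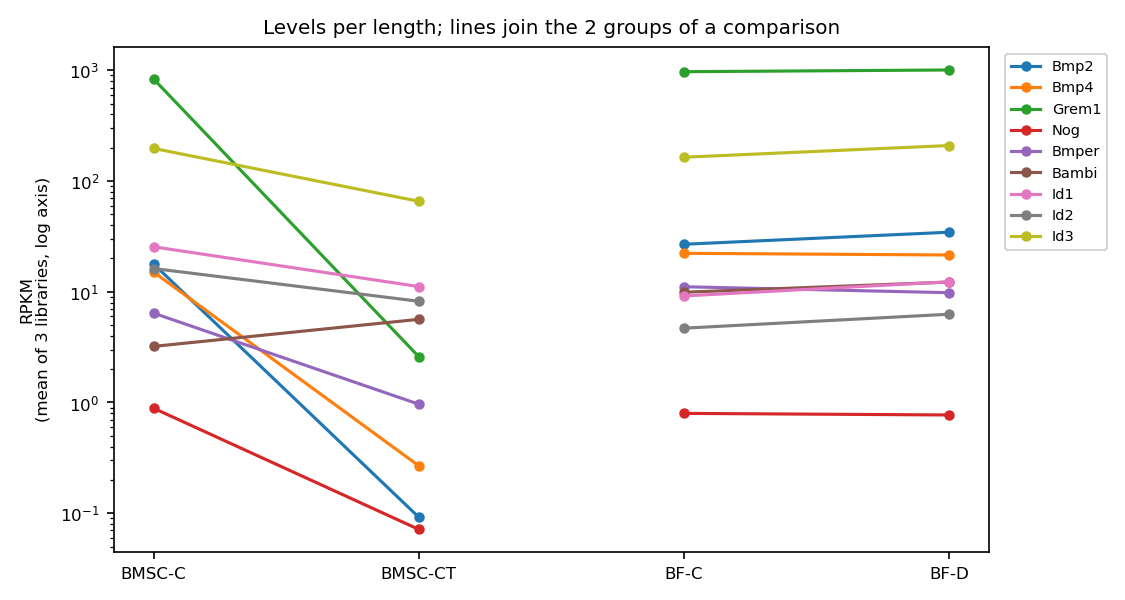
Mean level of each gene in RPKM (log axis) in the 4 groups of 3 libraries, with a line joining the 2 groups of each comparison. Between BMSC-C and BMSC-CT the line of Grem1 crosses those of all 3 Id genes and of Bambi, and between BF-C and BF-D all lines are nearly level.

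The rest of the BMP pathway was followed in 6 lists of 73 further genes, of which 57 were tested in the BMSC comparison. After CTGF and TGF-β1, 17 fell, 5 rose and 35 did not pass (limma adjusted p under 0.05), against 10.9% of all genes called lower and 7.7% called higher. Their median log2 fold change was -0.98, and that of all genes -0.15. The lists were chosen with earlier results of these data known, so these counts are a description. The 5 genes without reads in BMSC-CT passed the filter through BMSC-C alone. Set at the bound that 3 reads over the group allow, they left this median at -0.98. The count of calls depended on the libraries. It was 34 without BMSC-CT replicate 3, and 10, 9, 9 and 10 without BMSC-CT replicate 2 and BMSC-C replicates 1, 2 and 3. Of the 22 calls, 8 held in each alternative that gave a value, among them Gdf6, Bmp7, Chrdl2, Fstl1, Chrd, Atoh8 and Hes1. The other 14 were lost without at least 1 of the 4 libraries just named (BMSC-CT replicate 2 and those of BMSC-C), and Htra1, Runx2, Tll1, Smad1 and Smad7 under total-read scaling as well. Gdf6, Bmp7 and Atoh8 are among the 5 genes without reads in BMSC-CT and could only be lower, so nothing is read from their calls.

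Of 5 other BMP ligands tested, 3 were called lower and none higher, against 10.9% and 7.7% of all genes. Gdf6 and Bmp7 passed the filter through BMSC-C alone and could only be lower, so nothing is read from this count. Gdf6, a ligand of joint and limb formation, had 96.7, 88.0 and 97.0 normalized counts in BMSC-C and no reads in any BMSC-CT library, at least 78.9-fold lower. Gdf7 fell from 83.3 ± 27.7 to 2.86 ± 2.73 (log2 fold change -4.76, standard error 0.77, limma adjusted p = 0.010). Bmp7, a ligand of kidney and bone, had 10.4 ± 4.41 and then no reads, at least 8.75-fold lower. Bmp6 and Bmp3, with the highest counts of the list, did not pass, with log2 fold changes of 0.32 and 0.27. The direction of Bmp6 followed the library left out: it was 1.42 and past the threshold without BMSC-CT replicate 3, and -0.26 and -0.21 without replicates 1 and 2. The median of the list was -3.43, and -3.13 with Gdf6 and Bmp7 at their bounds.

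The secreted modulators held the clearest split, with 5 of 12 falling and 3 rising, against 10.9% and 7.7% of all genes. Chrdl2, a chordin-like protein, fell from 537 ± 118 to 14.6 ± 6.25 (log2 fold change -5.16, standard error 0.41, limma adjusted p = 0.00099). Crim1, a membrane protein that binds BMPs, fell from 2494 ± 233 to 189.8 ± 146 (log2 fold change -4.27, limma adjusted p = 0.020). Fstl1, a follistatin-like protein picked after its values were seen, had 14438 ± 1996 normalized counts in BMSC-C and 2272 ± 936 in BMSC-CT (log2 fold change -2.76, limma adjusted p = 0.0054). Tll1, a protease that cleaves chordin and also named after its values were seen, fell too (log2 fold change -1.80).

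Chordin itself moved the other way. Chrd, which binds BMPs much as noggin does, had 62.6, 53.3 and 71.9 normalized counts in BMSC-C and 287, 299 and 245 in BMSC-CT, without overlap. It rose by 2.13 on the log2 scale (standard error 0.27, limma adjusted p = 0.0042). Kcp, a chordin-family protein known in mouse to enhance BMP signalling, rose from 21.2 ± 9.68 to 121 ± 44.5 (log2 fold change 2.49, limma adjusted p = 0.023). Htra1, a secreted serine protease, rose from 6272 ± 565 to 12989 ± 4313, just past the threshold (log2 fold change 1.00, limma adjusted p = 0.048), and edgeR did not call it. Nbl1, an antagonist of the DAN family, did not pass (log2 fold change -0.71).

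Among 10 receptors and co-receptors tested, 1 rose and 1 fell, close to the 7.7% and 10.9% of all genes. Eng, endoglin, a co-receptor for TGF-β and some BMPs that is also a marker of mesenchymal and endothelial cells, had 1337, 1187 and 1517 normalized counts in BMSC-C and 2559, 3166 and 3842 in BMSC-CT. Its log2 fold change was 1.23 (standard error 0.22, limma adjusted p = 0.015). Bmpr1b, a type I BMP receptor, fell from 296 ± 51.1 to 28.3 ± 23.1 (log2 fold change -3.93, limma adjusted p = 0.031). Bmpr2, the type II BMP receptor, did not pass (log2 fold change -1.04). It had 1339, 1190 and 848 normalized counts in BMSC-C and 1135, 711 and 193 in BMSC-CT, with overlap and with replicate 3 far below the rest.

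All 11 genes of the SMAD list had negative log2 fold changes, as did 9144 of all 16818 genes. Of the 11, 3 passed, against 10.9% of all genes called lower. The calls were Smad1, a BMP SMAD, Smad7, an inhibitory SMAD, and Smurf2, a ubiquitin ligase that targets SMADs. The call of Smad1 was also lost by edgeR and with the length trend removed. These 3 are named after their values were seen, and Smad7 and Smurf2 had log2 fold changes of -2.48 and -2.37. Smurf1 and Ski, with the highest counts of the list, did not pass (-0.72 and -1.94). The value of Ski leans on BMSC-CT replicate 3. Ski had 1292, 1416 and 1537 normalized counts in BMSC-C and 1190, 1198 and 33.8 in BMSC-CT replicates 1, 2 and 3. Of 12 BMP target genes outside the 9, 3 fell and 1 rose, against 10.9% and 7.7% of all genes. Atoh8, Dlx2 and Dlx3 passed the filter through BMSC-C alone and could only be lower, so nothing is read from this count. Atoh8, a bHLH factor, had 17.98 ± 1.51 normalized counts in BMSC-C and no reads in BMSC-CT, at least 15.1-fold lower. Id4, picked after its values were seen, fell to 4.54 ± 2.33 from 23.6 ± 3.58, and Runx2, the bone transcription factor, fell from 319 ± 50.1 to 125 ± 42.2 (log2 fold change -1.39, limma adjusted p = 0.034). Alpl, alkaline phosphatase of early bone cells, rose from 7.52 ± 5.50 to 89.7 ± 32.8 (log2 fold change 3.64, limma adjusted p = 0.017). Msx1 did not pass (log2 fold change -0.74).

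Of the 7 E proteins and bHLH partners, on which Id proteins act, 2 fell and none rose, against 10.9% and 7.7% of all genes. Twist2 fell from 3328 ± 321 to 1497 ± 493 (log2 fold change -1.20, limma adjusted p = 0.029). Hes1, a repressor better known from Notch signalling and named after its values were seen, was the other (log2 fold change -2.63). Of the E proteins, which Id proteins bind, Tcf3 did not pass and had a log2 fold change of 0.30, or -0.12 under total-read scaling. Tcf4 and Tcf12, named after their values were seen, did not pass either. Tcf4 was at 433 ± 63.7 normalized counts in BMSC-C and 143 ± 83.0 in BMSC-CT, without overlap (log2 fold change -1.83, limma adjusted p = 0.065). Tcf12 was at 754 ± 172 and 344 ± 268, also without overlap (log2 fold change -1.81, limma adjusted p = 0.22). Without BMSC-CT replicate 3 their log2 fold changes were -1.18 for Tcf4, then past the threshold, and -0.57 for Tcf12.

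**Figure D4:**
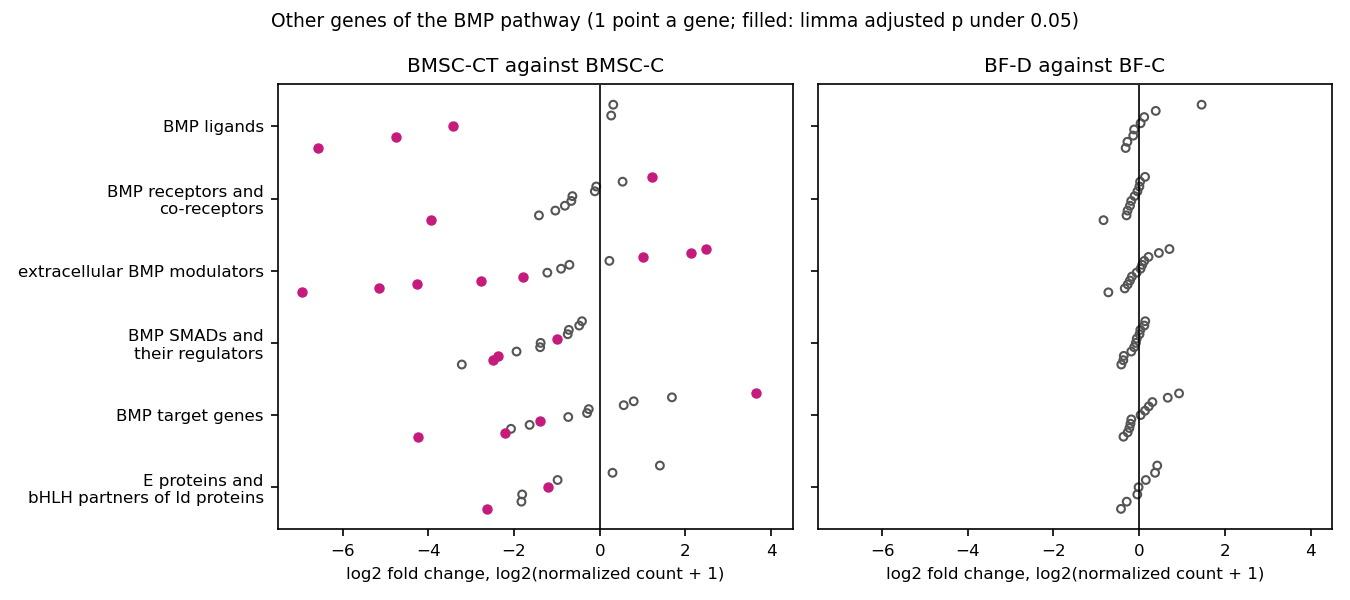
Log2 fold changes of the other BMP pathway genes, 1 point a gene in 6 lists, for BMSC-CT against BMSC-C (left) and BF-D against BF-C (right), filled where the limma adjusted p was under 0.05. On the left 17 filled points lie below 0 and 5 above, and on the right no point is filled.

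In BF-D against BF-C none of the 59 pathway genes tested was called by limma. Their median log2 fold change was -0.06, against -0.0044 over all genes. Limma without adjustment gave 3 higher and 1 lower (p under 0.05), and 6.2% of all genes, so nothing is read from that count. Without BF-D replicate 2, 4 were called, 2 in each direction, while 245 of all 17076 genes were. Among the 4 were Twist2 higher (log2 fold change 0.24) and Bmpr2 and Chrdl1 lower (-0.33 and -0.32). With all libraries, Bmpr2 had 1958 ± 88.5 normalized counts in BF-C and 1223 ± 598 in BF-D (log2 fold change -0.83, limma adjusted p = 0.71). Chrdl2, whose level was low in BMSC-CT, and Chrdl1 are named after their values were seen. For Chrdl2 and Chrdl1 the log2 fold changes were 0.71 (limma adjusted p = 0.50) and -0.72 (limma adjusted p = 0.71). The modulators Fstl1 and Htra1 gave log2 fold changes of -0.22 and 0.07, and Eng gave 0.14. Twist2 gave 0.37, and for Bmp6, Smurf2 and Tcf3 the values were 0.03, 0.01 and -0.01.

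**Figure D5:**
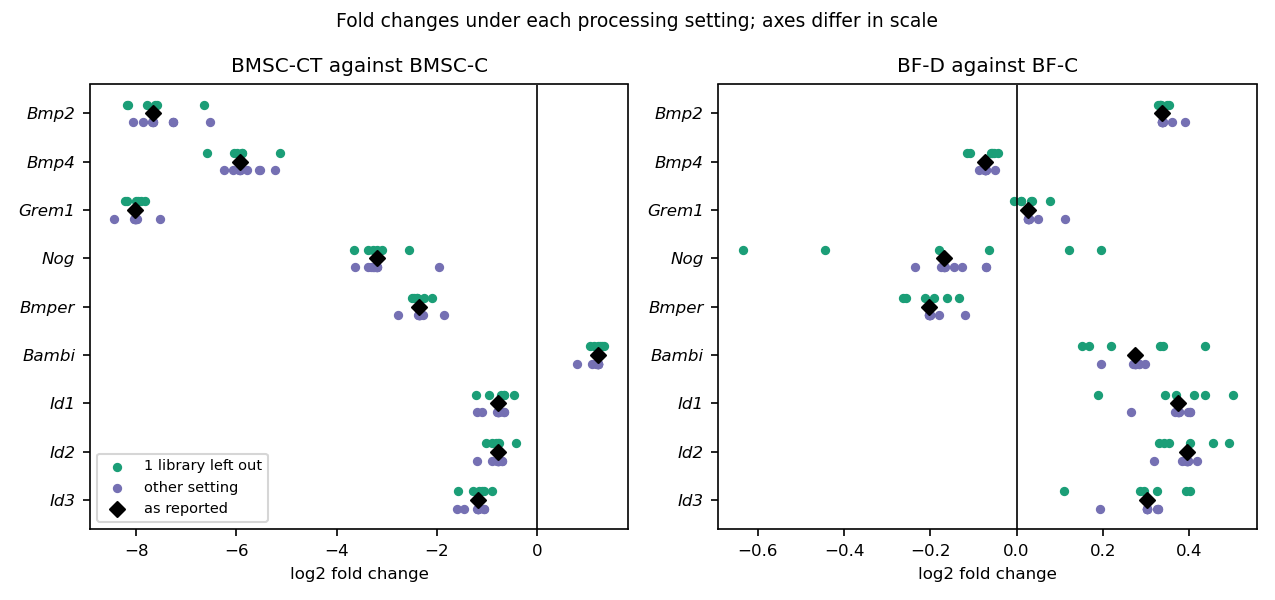
Log2 fold change of each of the 9 genes as reported (diamond), with 1 library left out in turn (green) and under other processing settings (purple), on axes of different width. In BMSC-CT against BMSC-C no point of any gene crosses 0, and in BF-D against BF-C the points of Grem1 and Nog lie on both sides of it.

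Genes whose levels ran most like those of Grem1, Bmp4 and Id1 were found by the mean absolute difference of centred log2(RPM + 1) over the 12 libraries, among 12581 genes. Nearest to Grem1 were Il11 (0.57), Ptgs2 (0.60) and Il6 (0.70), which encode interleukin-11, cyclooxygenase-2 and interleukin-6. Il11 had means of 856 and 0.734 RPM in BMSC-C and BMSC-CT, and of 277 and 513 in BF-C and BF-D. Ptgs2 had 1407, 10.7, 963 and 1304 in the same order. Among the nearest to Bmp4 were Has2, a hyaluronan synthase (0.19), and Nsg1 (0.20). Has2 had means of 25.5, 0.177, 37.6 and 35.5 RPM in that order. Nearest to Id1 were AC120246.2 (0.07), Pdlim2 (0.14) and Ercc1 (0.15). The distances of Bmp4 and Id1 were smaller than those of Grem1, whose range is wider. The libraries share their groups, so likeness over them is a description.

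The authors' deposited tables of enriched terms list both ligands. In their BMSC tables Bmp2 and Bmp4 stand in 3 of 6 GO terms and in 1 of 9 KEGG terms, cytokine-cytokine receptor interaction (deposited adjusted p = 0.0464, 27 genes up and 67 down). In their BF tables Bmp2 stands in 4 of 15 GO terms and in 1 of 20 KEGG terms, the same one (deposited adjusted p = 1.83e-07, 30 genes up and 7 down). These p-values count genes, not libraries.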

How the data were processed

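The comparisons were BMSC-CT against BMSC-C and BF-D against BF-C, with 3 libraries in each group. The submitters' processing notes name Bowtie 0.12.2 and mm8, a mouse build, while the gene IDs are rat. The build is therefore unknown and no deposited coordinate is printed. Each comparison has its own gene table from the authors (18616 and 19355 genes). Its signal values, as deposited, are normalized counts: reads over a size factor of the library. All (100%) came out as whole reads to within 0.01 when that factor was undone. The authors' deposited log2 fold changes and p-values were used only where named. The 2 tables were normalized separately, so tests stay within a table.

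Genes with a mean of at least 1 were tested with limma 3.58.1 (trend) in R 4.3.3 on log2(normalized count + 1). A gene is called at a Benjamini-Hochberg adjusted p under 0.05 over all genes tested (16818 and 17076). The procedure was also run on simulated counts, drawn independently for each gene. Apart from a check of the length trend, these held no library that stood apart over many genes, as BMSC-CT replicate 3 did. No error rate for these data is therefore taken from them. On recovered reads, edgeR 4.0.16 and DESeq2 1.42.0 served as alternatives and called 2935 and 5531 genes in the BMSC comparison, and 2 and 72 in the BF one. Other alternatives were TMM and total-read scaling, filters, pseudocounts, a replicate block, removal of the gene length trend and each library left out. No 2 replicates agreed within sampling noise. Whether replicate numbers pair the libraries was not settled, and the main fit has no block.

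The members and lists were chosen with earlier results of these data known. Named besides the 9 genes were, per comparison, up to 8 list genes called in each direction with the largest fold change, the 2 with the highest mean in each list, and the 3 most alike to Grem1, Bmp4 and Id1; others are marked, and some named by the rule are not reported here. Promoters come from RefSeq (GRCr8).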

Additional observations from a re-analysis of the deposited data

How the results depend on the processing

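In BMSC-CT against BMSC-C all 9 genes kept their direction in 16 alternatives each, and 138 of 144 values moved by less than the spread between replicates. That spread, the SD within groups on the log2 scale, includes BMSC-CT replicate 3. It was 1.26 for Bmp2, 1.05 for Bmp4 and 0.82 for Nog, so large moves of these genes stay within it. Of the 9, 6 were past the threshold as reported and 4 to 8 in the alternatives. Genes called numbered 3134 as reported, 5531 by DESeq2 and 744 to 6797 with 1 library left out. The extremes were 6797 without BMSC-CT replicate 3 and 744 without BMSC-C replicate 2. The count was 1221 without BMSC-CT replicate 2, 816 without BMSC-C replicate 1 and 1263 without BMSC-C replicate 3. Pathway genes called went from 22 to between 9 and 34. In BF-D against BF-C, 2 genes were called as reported, 0 with a mean of at least 10, 72 by DESeq2, 11 with the length trend removed and 0 to 245 with 1 library left out (245 without BF-D replicate 2). Without that library 4 pathway genes and 1 of the 9 genes were called, and with any other left out, 0 of each.

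The correlations of same-numbered deviations were 0.20, -0.021 and 0.18 in the BMSC table and 0.014, 0.020 and -0.0029 in the BF table. Those of differently numbered libraries ran from -0.23 to 0.089 and from -0.035 to 0.028. In the BMSC table replicates 1 and 3 thus gave the highest values with their own number, so pairing there is not settled. With the replicate number as a block, 3003 and 0 genes were called in the 2 comparisons, and 21 and 0 pathway genes (Smad1 and Id4 lost their BMSC calls under it).

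Among log2 fold changes that changed sign, total-read scaling took BMSC values to -0.12 for Tcf3, -0.10 for Bmp6 and -0.15 for Bmp3, and Bmp6 ran from -0.26 to 1.42 with 1 library left out. In the BF comparison the ranges with 1 library left out were -0.0070 to 0.079 for Grem1, -0.64 to 0.20 for Nog, -0.016 to 0.11 for Htra1, -0.021 to 0.060 for Smurf2, -0.032 to 0.13 for Bmp6, -0.23 to 0.071 for Smurf1, -0.057 to 0.052 for Tcf3 and -0.29 to 0.061 for Bmp3. With the length trend removed the values were -0.042 for Bmp6, 0.028 for Smurf1, 0.027 for Tcf3 and 0.0091 for Bmp3, and with total-read scaling 0.0082 for Tcf3. The cause of these changes was not tested. Depth limits Nog, Bmp2 and Bmp4 in BMSC-CT, which rest on 6, 15 and 30 reads.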
